A study of Mus musculus with 2 samples.

Results

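Weak promoter peaks were regions of open chromatin at protein-coding genes that were called in regulatory T cells of the mouse but did not pass the reproducibility threshold. A member was a distinct interval of the longer, pseudoreplicated peak list that overlapped no interval of the IDR-thresholded list and whose summit lay within 1 kb of a transcription start site (TSS) of a protein-coding gene. IDR, the irreproducible discovery rate, measures how well peak ranks agree between 2 calls, and the threshold was 0.05. There were 3566 such peaks, 22.5% (95% interval 21.9 to 23.2%) of the 15831 promoter intervals of that list, which held 58871 intervals in all. The other 12265 promoter intervals overlapped a thresholded peak and are called thresholded promoter peaks here. Of the 43040 intervals away from coding TSSs, 48.2% were weak in the same sense, and these 20741 are called weak distal peaks.

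Open chromatin was mapped by ATAC-seq, in which the Tn5 transposase inserts sequencing adapters into accessible DNA. The cells were primary regulatory T cells of strain Foxp3CreERT2 x Rosa26YFP, which carries an inducible Cre recombinase driven from Foxp3 and a YFP reporter at Rosa26, from a male adult of 4 months. The labels trace these cells to haematopoietic cells of bone marrow, and treatment with an inducer is not stated in them. Both of the 2 libraries were technical replicates of biological replicate 1 and entered the same pooled peak lists, so there was 1 group and 1 sample, no spread between animals and no test.

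Regulatory T cells are CD4 T cells that hold back immune responses and depend on the transcription factor Foxp3. Promoters of widely used genes usually lie in CpG islands, stretches rich in unmethylated CG dinucleotides, and stay accessible in most cell types through factors such as ETS proteins, SP and KLF proteins, NFY and NRF1. Promoters of cytokines and other inducible immune genes mostly lack a CpG island and open on stimulation, while promoters of developmental regulators have long CpG islands and are kept silent in T cells, often by Polycomb proteins.

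The promoters that carried only a weak peak were of both kinds, which 7 sequences show. They are given 5′ to 3′ on the strand of the gene from GRCm38.p6, capitals mark CG dinucleotides, and each lies in the weak peak just upstream of a TSS and outside annotated exons. They were picked after their values were seen. The first 3 belong to immune genes in CpG-poor sequence. Ebi3 encodes a subunit of interleukin 27 and interleukin 35 (chr17:55952490-55952639, plus strand), Il4 the cytokine of type 2 helper T cells (chr11:53617339-53617488, minus strand), and Ccl5 a chemokine of activated T cells (chr11:83530519-83530668, minus strand). They hold 2, 1 and 0 CG dinucleotides.
Ebi3: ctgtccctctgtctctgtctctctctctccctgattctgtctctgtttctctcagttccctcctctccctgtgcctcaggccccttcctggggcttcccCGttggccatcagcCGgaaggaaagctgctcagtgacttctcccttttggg
Il4: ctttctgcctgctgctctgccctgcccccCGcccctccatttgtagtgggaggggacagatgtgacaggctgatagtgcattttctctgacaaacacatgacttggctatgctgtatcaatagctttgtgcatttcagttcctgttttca
Ccl5: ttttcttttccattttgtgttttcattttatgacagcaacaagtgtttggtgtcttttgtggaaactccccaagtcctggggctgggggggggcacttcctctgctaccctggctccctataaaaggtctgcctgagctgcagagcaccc

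The other 4 lie in CpG-rich sequence. Il12a encodes the p35 subunit that interleukin 12 and interleukin 35 share (chr3:68691242-68691391, plus strand), and its stretch holds 14 CG dinucleotides. Six3 (chr17:85620640-85620789, plus strand) encodes a homeodomain factor of forebrain and eye, with 8. Foxc1 (chr13:31806483-31806632, plus strand) encodes a forkhead factor of mesoderm development, with 14. Hoxa13 (chr6:52260881-52261030, minus strand) encodes a homeodomain factor of distal limb and gut, with 25.
Il12a: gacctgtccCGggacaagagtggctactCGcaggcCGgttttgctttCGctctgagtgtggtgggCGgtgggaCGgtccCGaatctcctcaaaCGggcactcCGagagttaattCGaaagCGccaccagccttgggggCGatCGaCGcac
Six3: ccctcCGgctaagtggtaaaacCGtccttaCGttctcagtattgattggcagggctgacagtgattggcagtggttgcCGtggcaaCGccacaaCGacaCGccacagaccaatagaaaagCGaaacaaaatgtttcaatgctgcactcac
Foxc1: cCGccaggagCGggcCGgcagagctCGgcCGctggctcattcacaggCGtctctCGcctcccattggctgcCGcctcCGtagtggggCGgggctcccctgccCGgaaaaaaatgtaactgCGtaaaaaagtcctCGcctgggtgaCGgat
Hoxa13: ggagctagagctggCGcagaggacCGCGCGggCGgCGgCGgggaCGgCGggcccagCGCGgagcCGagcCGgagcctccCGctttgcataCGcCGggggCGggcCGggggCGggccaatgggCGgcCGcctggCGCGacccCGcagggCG

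A gene was counted as thresholded when any of its TSSs had a thresholded peak within 1 kb, and as weak only when a weak promoter peak but no thresholded one lay there. The labelled cell type matched its markers. Foxp3, Il2ra, Ctla4, Ikzf2, Tnfrsf18, Cd3e and Cd4 were thresholded, while Cd8a, Csf1r, Lyz2, Itgam, Ncr1, Hba-a1 and Hbb-bs had neither kind of peak. Cd8b1, a marker of CD8 T cells, was also thresholded, and the NK cell marker Klrb1c was weak only. Of 21938 protein-coding genes, 11537 were thresholded (52.6%), 1063 were weak only (4.85%) and 9338 had neither. These states are the rule itself seen from the gene and are given as a description.

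The members fell into 3 kinds by what lay around them, a split made after the values were seen. Flanking peaks, 1464 in number (41.1% of members, 95% interval 39.4 to 42.7%), lay within 1 kb of a thresholded peak. Among members of at least the median signal that share was 15.5%. Extra peaks, 884 in number (24.8%), stood farther off, where at least 1 gene had a thresholded peak within 1 kb of any of its TSSs. Sole peaks, 1218 in number (34.2%), stood apart at genes with no thresholded promoter peak. Weak distal peaks lay within 1 kb of a thresholded peak less often, in 14.6% (95% interval 14.1 to 15.1%). Most genes with a member had 1 of them (2494 of 3058), and 99 genes had 3 or more.

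The members were chosen by their place in the peak lists, that is by −log10 p and signal through IDR, and these values are given as a description. Signal, the authors' enrichment value per peak, had a median of 4.17 among members (interquartile range 3.11 to 5.89, full range 1.40 to 19.4), against 15.7 for thresholded promoter peaks. The median −log10 p was 15.9 among members and 253 among thresholded promoter peaks. In 58.4% of members the −log10 p was higher than that of the weakest thresholded promoter peak, which stood at 13.99, but in 5.50% it was higher than the 5th percentile of those peaks, 39.7. Members were narrow, with a median width of 321 bp against 937 bp, and 71.6% had 1 summit against 22.0%. All 3566 appear in the ranked list from which IDR was computed, and 56.6% of them stood at its lowest −log10 IDR, 0.477.

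Flanking peaks had the lowest signal, with a median of 3.12, against 4.98 for extra and 5.45 for sole peaks. Their −log10 p was close to that of the others, with medians of 15.6, 16.7 and 15.7 in the same order. The signal of many peaks fell on whole multiples of 0.209, within 0.0005. This was so for 58.2% of sole peaks (95% interval 55.4 to 61.0%), 41.4% of extra peaks and 1.57% of flanking peaks (95% interval 0.998 to 2.35%). Thresholded promoter peaks fell on these steps in 3.61% and weak distal peaks in 49.4%. The background behind the signal is not given in the sources used here, and its part in the lower signal of flanking peaks was not tested.

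**Figure D1:**
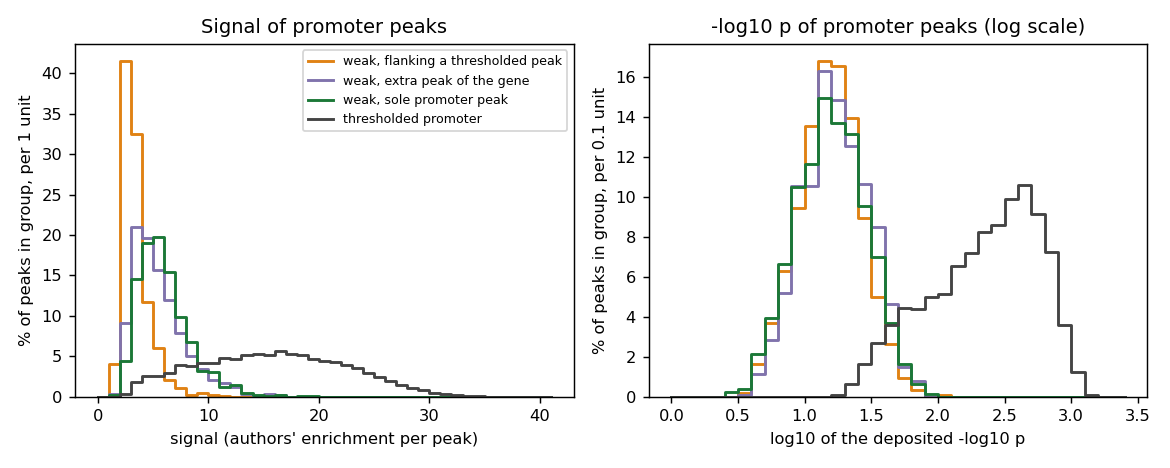
Left, signal, and right, log10 of the −log10 p, for flanking, extra and sole weak promoter peaks and for thresholded promoter peaks, as the percentage of each group per bin. Flanking peaks lie lowest in signal (median 3.12), while the 3 weak groups share 1 range of −log10 p, with medians from 15.6 to 16.7.

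The edge of the threshold was fine. The member closest to it, at an internal TSS of Ece1, an endothelin-converting enzyme, had a −log10 IDR of 1.29981, a signal of 7.30 and a −log10 p of 21.4. The thresholded promoter peak of Fam240a had the same signal and the same −log10 p and a −log10 IDR of 1.30361. The next members were at Asap1 (1.299) and Atf6 (1.29868). Thresholded promoter peaks nearer to the threshold than Fam240a were at Chst11 (1.30159) and Mettl15 (1.30191). Their values were unlike those of Ece1, with signals of 8.20 and 2.53 and a −log10 p of 44.0 and 22.1.

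The strongest members differed between the 2 inputs of the IDR run. The ranked list gives a −log10 p for each input, and what the inputs were, libraries or splits of the pooled reads, was not stated. The member of highest signal, at an internal TSS of Ccdc120 on the X chromosome, had a signal of 19.4 and a −log10 p of 67.4 in input 1 and 27.3 in input 2. At Oit3, a gene of the liver and kidney, the signal was 18.8, and the 2 inputs gave 23.7 and 69.0. At Afp, the gene of alpha-fetoprotein, a serum protein of the fetal liver, the signal was 16.9, and the inputs gave 10.6 and 67.6. The 10 members of highest signal and the 10 of highest −log10 p were 14 peaks, and in all 14 the inputs differed by a factor of 2.06 or more (median 2.42). Input 1 was the higher in 6 of them and input 2 in 8. These 14 were picked for strength among peaks that failed IDR. That choice favours unequal inputs, so their difference is given as a description only.

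Over all members the inputs differed by at least a factor of 2 in 23.5%, against 0.522% of thresholded promoter peaks and 25.7% of weak distal peaks. Input 1 was the higher in 423 of these 839 members and input 2 in 416. Agreement of the inputs is what IDR measures, so the gap to the thresholded peaks follows from the rule. The member of highest −log10 p, 124, was a flanking peak at Ccm2, a gene of the cerebral cavernous malformation complex, 242 bp from a thresholded peak, with 31.1 in input 1 and 96.3 in input 2. The largest gaps between inputs, named after their values were seen, were at Cln6 (119 against 2.95), Hsd17b10 (6.23 against 142) and Zcchc24 (48.1 against 4.71), all flanking peaks 51 to 55 bp from a thresholded peak. The −log10 p of these members in the pooled list was only 3.66, 7.62 and 6.15 in the same order. Whether the higher input value belongs to the member or to its strong neighbour was not tested.

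The rule set a limit of 1 kb around the TSS. It also kept members off thresholded intervals, and 87.5% of thresholded promoter peaks covered a TSS. A lower share of flanking peaks, and so of members, at the TSS thus follows in part from the rule. Within 1 kb, summits of members lay less often at the TSS itself. A summit within 100 bp of a TSS was found in 28.5% of members (95% interval 27.1 to 30.1%) and in 65.4% of thresholded promoter peaks (64.5 to 66.2%). Sole peaks came closest to the latter, with 45.2% (42.4 to 48.1%), followed by extra peaks with 27.0% and flanking peaks with 15.6%. Intervals here and below are exact Clopper-Pearson intervals of counting error, and regions are not replicates.

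Flanking peaks lay mostly inside the gene. Their summit was downstream of the nearest TSS in 60.7% (95% interval 58.2 to 63.2%), against 41.2% (38.4 to 44.0%) of sole peaks and 27.2% of thresholded promoter peaks. Of flanking peaks 32.6% lay 500 to 1000 bp downstream, against 15.8% at the same distances upstream. They stood on the downstream side of the neighbouring thresholded peak in 65.1% (62.6 to 67.5%). The gap to that peak was 46 bp at least and 163 bp in the median, and the distance from summit to nearest thresholded summit was 587 bp in the median (interquartile range 434 to 802 bp).

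Extra peaks lay mostly nearest internal start sites, which their definition favours, since the thresholded peak of the gene lies more than 1 kb off. Their nearest TSS was the 5′ end of the gene in 13.3% (95% interval 11.2 to 15.8%), against 62.9% (60.1 to 65.6%) of sole peaks and 67.1% of thresholded promoter peaks. Foxp3 had 2 extra peaks. One at chrX:7579427-7579796 had its summit 3 bp downstream of a TSS of Foxp3, with a signal of 1.98, a −log10 p of 8.48, and inputs of 5.90 and 2.24. The other at chrX:7586524-7586787, 319 bp downstream of an internal TSS, had a signal of 2.94, a −log10 p of 16.0, and inputs of 6.09 and 12.8. Foxp3 itself counted as thresholded through other TSSs, and the nearest thresholded peaks lay 3876 and 2101 bp from these 2 members. A transcript annotated as principal started within 1 kb of both summits.

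**Figure D2:**
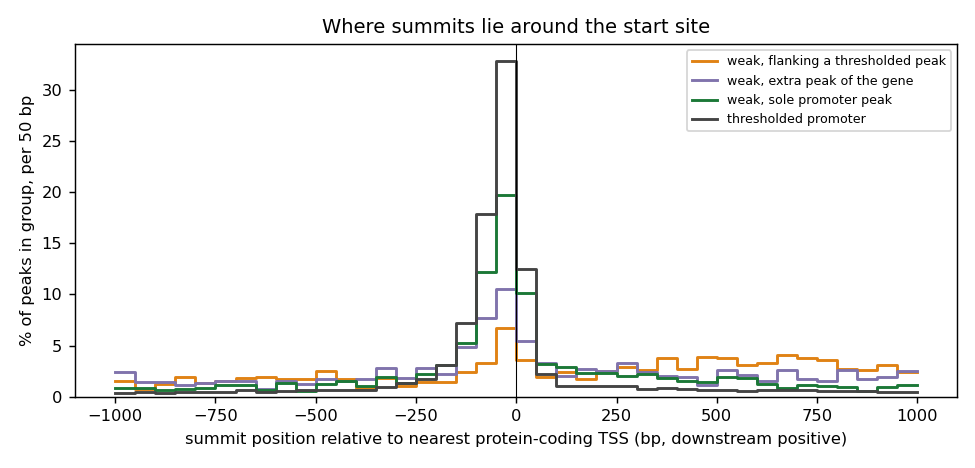
Position of the summit relative to the nearest protein-coding TSS (bp, downstream positive), as the percentage of each group per 50 bp. Sole weak peaks gather at the TSS as thresholded peaks do, though less (45.2% against 65.4% within 100 bp), while flanking peaks spread downstream.

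CpG content separated the kinds of weak peak. A 500 bp window on the summit was called CpG-rich when it had at least 50% G and C and an observed to expected CpG ratio of at least 0.6. By this measure 34.9% of members were CpG-rich (95% interval 33.3 to 36.5%), against 69.7% (68.8 to 70.5%) of thresholded promoter peaks, 1.80% of weak distal peaks and 40.7% of windows on all protein-coding TSSs. Sole peaks were CpG-rich in 49.9% (47.1 to 52.8%), flanking peaks in 32.5% (30.1 to 35.0%) and extra peaks in 18.2% (15.7 to 20.9%). The distance to the TSS moves with this measure: CpG-rich members had their summit within 100 bp of a TSS in 41.9%, other members in 21.4%. The median signal was 4.21 in CpG-rich and 4.17 in other members, whereas thresholded promoter peaks had 17.0 and 12.1. CpG-rich sole peaks were the wider, with a median of 467 bp against 345 bp.

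**Figure D3:**
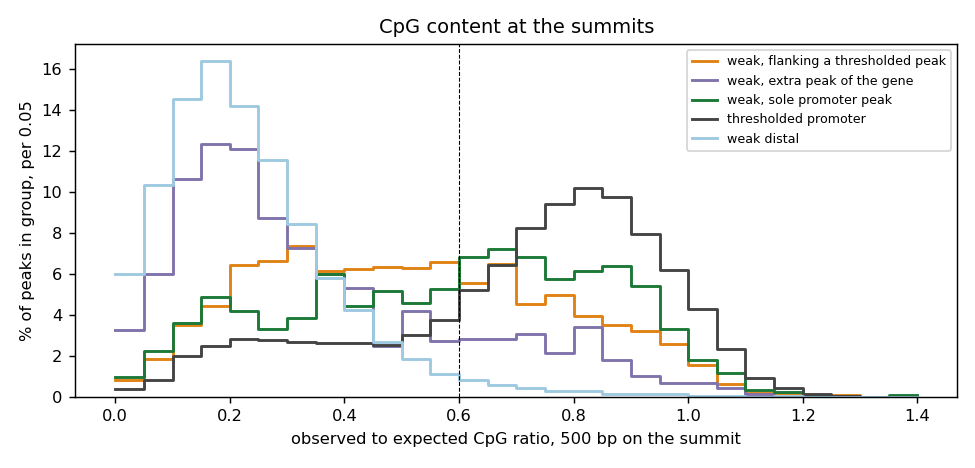
Observed to expected CpG ratio in 500 bp on the summit, as the percentage of each group per 0.05, with the 0.6 limit as a dashed line. Thresholded promoter peaks stand to the right and weak distal peaks to the left, extra peaks resemble the latter in shape, and sole peaks spread over both sides (49.9% CpG-rich).

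Seen from the gene, 48.7% of the weak-only genes had a CpG-rich 5′ end (95% interval 45.7 to 51.8%), between thresholded genes with 73.8% and genes with neither peak with 15.04%. Among the 10401 genes without a thresholded promoter peak, 10.2% had a weak one. That share was 27.0% for CpG-rich 5′ ends (518 of 1922 genes) and 6.43% for others (545 of 8479 genes). Over all genes the weak-only share was 4.96% for CpG-rich 5′ ends and 4.74% for others, and 81.6% of the former and 26.3% of the latter were thresholded. No thresholded peak lay in the gene or within 20 kb of it for 28.0% of weak-only genes and for 67.5% of genes with neither peak, with median numbers of such peaks of 1 and 0.

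Motifs were searched on both strands of the 200 bp around each summit, and a match is a description of the letters. The ETS motif (CCGGAAG) stood in 4.04% of member windows (95% interval 3.42 to 4.74%), in 16.9% (16.3 to 17.6%) of thresholded promoter windows and in 8.09% of windows on all protein-coding TSSs. Its core is shared with the PU.1 word GAGGAAGT. The KLF/SP motif (GGGGCGGG) stood in 10.9% (9.93 to 12.01%) of members and 24.9% of thresholded promoter peaks, with 13.1% over all TSSs. Within the members it was more frequent in sole peaks, at 17.2% (15.1 to 19.4%), than in flanking peaks, at 7.72% (6.40 to 9.21%). The NFY motif (CCAAT followed by C or G and then by A or G) stood in 6.65% of members and 21.3% of thresholded promoter peaks, with 10.7% over all TSSs. The NRF1 motif stood in 1.46% and 7.55%, with 3.74% over all TSSs. The promoter motifs were thus sparser in members than in thresholded promoter peaks. Windows 1 kb from member summits held ETS in 2.19%, KLF/SP in 4.57%, NFY in 6.20% and NRF1 in 0.659%. The NFY share of members was thus close to that of the sequence 1 kb away. KLF/SP stood in 7.31% of windows 1 kb from flanking peaks, close to their own share, and in 2.96% of those 1 kb from sole peaks.

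CpG content and position differ between these groups, so the motifs were also counted only in CpG-rich windows with the summit within 100 bp of a TSS, a choice made after the values were seen. There the KLF/SP motif stood in 32.4% of 324 sole peaks (95% interval 27.3 to 37.8%) and in 32.2% of 6348 thresholded promoter peaks (31.0 to 33.3%), intervals that overlap. The ETS motif was sparser in sole peaks, with 6.79% (4.30 to 10.1%) against 24.3% (23.3 to 25.4%). The NFY motif stood in 11.1% (7.90 to 15.05%) against 23.4%, and NRF1 in 5.56% (3.33 to 8.64%) against 11.6%. YY1 (AAGATGGC, in 2.89% of all TSS windows) stood in 1.23% (0.337 to 3.13%) against 5.69%. CREB (TGACGTCA, in 1.43% of all TSS windows) stood in 1.85% (0.683 to 3.99%) against 4.82%. In other windows at the TSS, ETS stood in 5.73% of 227 sole peaks (3.08 to 9.59%) and 9.52% of 1671 thresholded peaks (8.15 to 11.02%), intervals that overlap.

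**Figure D4:**
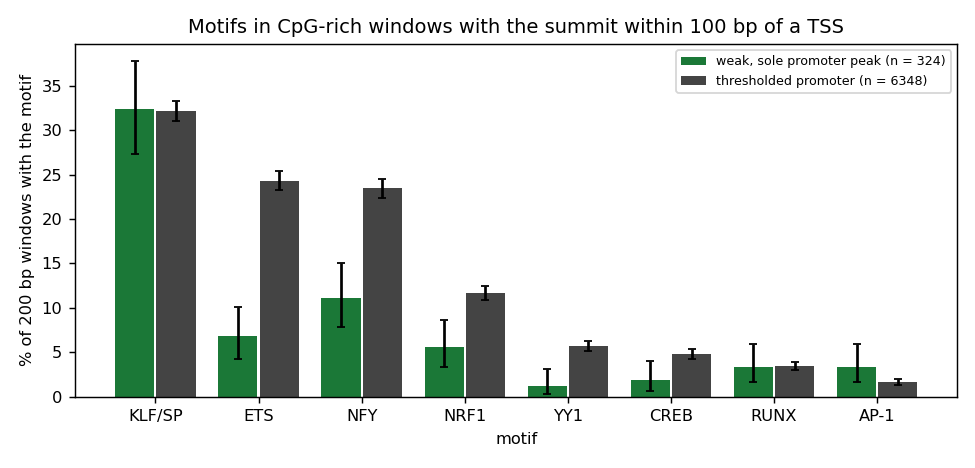
Percentage of 200 bp windows holding each motif, for sole weak promoter peaks and thresholded promoter peaks in CpG-rich sequence with the summit within 100 bp of a TSS; bars start at 0 and whiskers are exact 95% intervals of counting error. KLF/SP is level at 32.4% and 32.2%, while ETS stands at 6.79% and 24.3%.

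Among the members, the RUNX, AP-1 and CTCF motifs were most frequent in extra peaks, below their share in weak distal peaks. For each of these motifs the 95% intervals of extra and sole peaks overlapped. The RUNX motif (TGNGGTT with C or T as N) stood in 9.16% of extra peaks (95% interval 7.34 to 11.3%), 6.08% of sole peaks and 5.87% of flanking peaks, against 5.16% (4.78 to 5.57%) of thresholded promoter peaks, 11.7% of weak distal peaks and 4.13% of windows on all TSSs. The AP-1 motif (TGAGTCA) stood in 6.22% of extra peaks (4.72 to 8.02%), 4.43% of sole peaks (3.35 to 5.75%) and 4.71% of flanking peaks (3.69 to 5.93%). It stood in 3.07% (2.77 to 3.39%) of thresholded promoter peaks, 9.56% of weak distal peaks and 2.69% over all TSSs. The CTCF motif stood in 5.20% of extra peaks (3.83 to 6.88%), 3.20% of sole peaks and 0.683% of flanking peaks (0.328 to 1.25%), against 1.88% of thresholded promoter peaks, 7.12% of weak distal peaks and 0.281% over all TSSs. The forkhead motif (GTAAACA) stood in 3.00% of members (2.47 to 3.61%), 1.90% of thresholded promoter peaks (1.67 to 2.16%) and 1.81% over all TSSs. In windows 1 kb from the summits it stood in 2.38% for members and 2.75% for thresholded promoter peaks. The TATA box (TATAAA or TATATA) in its usual place, 40 to 20 bp upstream of the TSS, was rare, at 0.884% of the 1018 members with the summit within 100 bp, 0.836% of such thresholded peaks and 1.58% of all TSSs.

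The REST motif, the silencer element of neuronal genes, was found in 3 of the promoter windows and in 0.00535% of windows on all TSSs, and 2 of the 3 were sole peaks. They lay at Chrnb2, a subunit of the neuronal nicotinic acetylcholine receptor (signal 8.14, summit 161 bp downstream of the TSS), and at Chgb, chromogranin B of secretory granules (signal 3.96, 492 bp downstream). Both were named after their values were seen.

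Repeats were somewhat more frequent at members. The summit lay in repeat-masked sequence in 8.72% of members (95% interval 7.82 to 9.70%), 4.63% (4.27 to 5.02%) of thresholded promoter peaks and 13.8% of weak distal peaks. On the single X chromosome of this male, 22.6% of the 478 promoter peaks were weak (18.9 to 26.6%), against 22.5% on the autosomes (21.9 to 23.2%). Single autosomes ranged from 18.8% on chromosome 13 to 25.03% on chromosome 6.

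The gene lists of this cell type were mostly thresholded, and the housekeeping and cell cycle lists were so throughout. Of 21 genes of the regulatory T cell signature, 18 were thresholded and 1, Ebi3, was weak only (4.76%, beside 4.85% of all genes). Its peak had a signal of 8.20, a −log10 p of 36.6 and inputs of 27.0 and 10.5, with the summit 19 bp upstream of the TSS. Of 23 T cell identity genes 21 were thresholded, and Tcf7 and Skap1 were weak only (8.70%). All 20 housekeeping and all 32 cell cycle genes were thresholded.

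Tcf7 encodes TCF-1, a transcription factor of naive and memory T cells. Its sole peak had a signal of 5.55 and a −log10 p of 46.1, with 17.5 and 30.0 in the inputs, and the summit lay 29 bp upstream of a TSS. A further weak peak upstream had a signal of 3.36 and lay 882 bp from a thresholded peak, so the locus was open close to but outside the window. Skap1, an adaptor of T cell receptor signalling, had a signal of 3.93 and inputs of 7.57 and 26.4, with a thresholded peak 2268 bp away. Cd8a, Il10 and Itgae had neither kind of peak at a TSS.

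Genes of effector regulatory T cells were weak only in 5 of 21 (23.8%, 95% interval 8.22 to 47.2%), beside 4.85% of all genes. Tbx21, the T-bet gene, had a signal of 9.26 and inputs of 14.8 and 29.5. Klrg1, an inhibitory receptor of differentiated cells, had a signal of 7.46, and Cxcr3, a chemokine receptor of type 1 responses, had 4.56. Lag3, an inhibitory receptor that binds MHC class II, had 2 members with signals of 3.72 and 3.01. Of 12 genes of resting and homing T cells, Ly6c1 (5.42) and Igfbp4 (5.24) were weak only (16.7%, 95% interval 2.09 to 48.4%).

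Secreted factors were mostly closed, and a few had a weak peak. Of 30 cytokine genes 10 were thresholded and 4 were weak only (13.3%), namely Il12a (signal 7.47), Csf2 (6.05), Il4 (5.22) and Tnf (3.51). The Tnf peak had a high −log10 p for its signal, 33.7, and lay 1098 bp from a thresholded peak. Of 27 chemokine genes 3 were thresholded and 3 weak only (11.1%, 2.35 to 29.2%), Cxcl9 (7.51), Ccl5 (6.44) and Ccl4 (4.80). Among 44 cytokine and chemokine receptor genes Il12rb2 (8.66), Cxcr3 and Ifngr2 (4.44) were weak only (6.82%, 1.43 to 18.7%). Il12rb2, the signalling chain of the interleukin 12 receptor, had its summit 10 bp downstream of the TSS and no CG dinucleotide in 500 bp. Of 25 interferon-stimulated genes 21 were thresholded, and Oas1a (5.42), Ifi44 (5.22) and Oas3 (5.04) were weak only (12%, 2.55 to 31.2%).

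Lists of other lineages held 0 to 3 weak-only genes each, beside 4.85% of all genes. They were 3 of 15 B cell genes (20%, 95% interval 4.33 to 48.1%), 2 of 16 NK and cytotoxic genes (12.5%, Gzmk with a signal of 6.26 and Klrb1c with 3.13) and 2 of 15 neuronal genes (13.3%, Grin1 with 8.97 and Syn2 with 6.26). One of 15 muscle genes (6.67%, Ttn with 6.47) and one of 12 epithelial genes (8.33%, Epcam with 7.68) were also weak only. None of 19 myeloid, 13 erythroid and megakaryocyte or 15 hepatocyte genes was weak only. Traces of other cells, an opening in few cells and a low opening in all cells cannot be told apart in a pooled sample.

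Most developmental regulators had neither peak, and some were weak only. Of 76 developmental transcription factor genes 10 were thresholded and 11 were weak only, 14.5% (95% interval 7.45 to 24.4%) beside 4.85% of all genes. Of the genes without a thresholded promoter peak, 16.7% of this list were weak only. That share was 10.2% over all genes and 27.0% for CpG-rich 5′ ends, which 56 of the 76 genes had. The strongest of the 11 were Six3 (signal 6.26, inputs 8.72 and 8.72), Foxa1 (6.01), Foxc1 (5.95) and Hoxb9 (5.54), the last a flanking peak. Pax6, the eye and brain regulator, had a signal of 5.46, and its nearest thresholded peak lay 228.078 kb away. Of 47 developmental signalling genes 9 were thresholded and 5 were weak only, Wnt16 (6.89), Wnt11 (6.17), Wnt10b (5.44), Fgf8 (5.14) and Wnt5b (3.23). Without the thresholded genes their share was 13.2%, and 27 of the 47 had a CpG-rich 5′ end. Of 12 stem and progenitor cell genes 4 were weak only, Kit (8.35), Mycn (6.58), Lmo2 (5.42) and Hoxa9 (4.13). Without the thresholded genes their share was 44.4%, and 8 of the 12 had a CpG-rich 5′ end. Wide intervals come with these small lists.

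The weak peaks of immune and developmental genes lay in different sequence. Over 10 immune lists, 27 genes were weak only, with a median signal of 5.24, and 3 of the peaks were CpG-rich (11.1%, 95% interval 2.35 to 29.2%). Over the 3 developmental and stem cell lists, 20 genes were weak only, with a median signal of 5.45, and 12 of the peaks were CpG-rich (60.0%, 36.1 to 80.9%). The lists were grouped in this way after the values were seen, and the share of CpG-rich promoters among their genes differs from the outset.

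**Figure D5:**
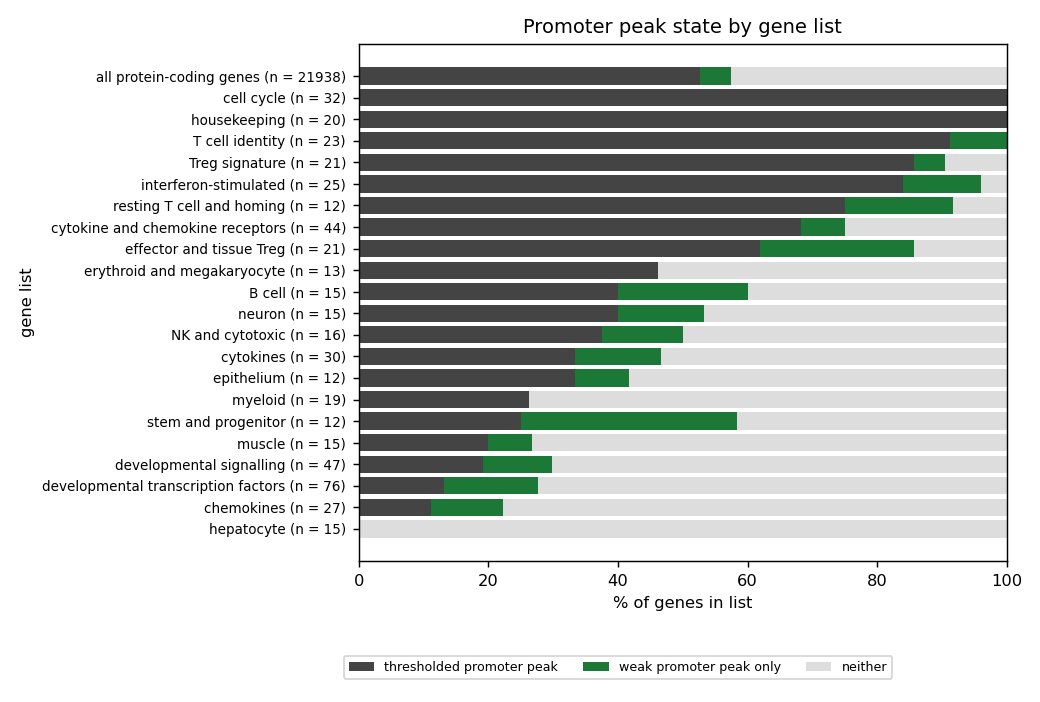
Percentage of genes in each list with a thresholded promoter peak, with a weak promoter peak only and with neither, with all protein-coding genes at the top. The weak-only share is 0 for cell cycle and housekeeping genes, 4.76% for the regulatory T cell signature and 14.5% for developmental transcription factors.

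Gene families named by symbol spanned a weak-only share of 0 to 25.6%, with a median of 4.72% over 28 families, beside 4.85% of all genes. Hox genes had the highest, with 10 of 39 (95% interval 13.0 to 42.1%), led by Hoxb5 (signal 11.5) and Hoxc9 (6.63). Without thresholded genes the share was 33.3% for Hox genes and 27.0% for all CpG-rich 5′ ends. Of the 39 Hox genes 28 had a CpG-rich 5′ end. Chemokines had 5 of 36 (13.9%), led by Ccl27a (8.55), and protocadherins 9 of 69 (13.0%), led by Pcdhgb7 (12.5). Olfactory receptors, which are silent outside the nose, had 10 of 1135 (0.881%), and vomeronasal receptors had 0 of 329, where exact counting allows up to 1.11%. Cytosolic ribosomal protein genes had 0 of 98, and 88 of them were thresholded. Of 78 mitochondrial ribosomal protein genes the one without a thresholded peak, Mrps25, was weak only, with a signal of 11.4.

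Camk2n2, an inhibitor of CaM kinase II, had the widest member, at 2190 bp with 8 summits in a CpG ratio of 0.911 (signal 6.64). Pde3b, a phosphodiesterase of insulin signalling, followed with 1764 bp and 6 summits.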

How the data were processed

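The authors deposited 3 peak lists on mm10, called on the pooled reads of both libraries per the labels' file listings. The aligner, caller and versions, and any read-end shift, were not given in the sources used here. Each line of the deposited lists holds an interval, a summit, a signal value (the authors' enrichment, with an unstated background) and a −log10 p, and the deposited ranked list adds scores, the −log10 of the IDR and the −log10 p of 2 inputs. The lists hold no read counts, so the depth is unknown, and a low signal cannot be set against it.

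Lines sharing an interval were reduced to 1 peak at the summit of highest signal. An overlap of 1 bp with a thresholded interval counted. TSSs were the 93459 start positions of all transcripts of protein_coding genes in GENCODE M21 on GRCm38.p6, whose chromosomes match mm10. Of 501 list genes, 498 matched, in 21 lists and 28 symbol families, and 23 motifs were searched. CpG content, motifs and soft-masked repeats were read from the reference. Shares have exact Clopper-Pearson 95% intervals, and no test was made. Python 3.11.15, numpy 2.4.6, pandas 2.3.3 and scipy 1.17.1 were used, and the functions were tested on simulated data.

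The members, lists and motifs were chosen with earlier results of these data known. Named genes were a fixed set of T cell genes, the 10 members of highest signal and of highest −log10 p, up to 4 weak-only genes of each list and up to 2 of each family by signal, and the 3 peaks on either side of the threshold. Not every gene allowed by this rule is described, and a few are not reported here. Sequences were to be the bases upstream of a TSS, and after exon overlaps were seen they were taken as the exon-free stretch of up to 150 bases nearest the summit, which left none at Foxp3. The alternatives changed the promoter window, the TSS set, the overlap, the signal filter, the summit, the chromosomes and the sequence windows.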

Additional observations from a re-analysis of the deposited data

How the results depend on the processing

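No paired analysis was possible because there is 1 group and no result comes from a test. Of 103 alternative values of the main results, 57 stayed within the 95% interval of the share or within 1.5 times the count, and 46 moved. The differences between members and thresholded promoter peaks in distance to the TSS, CpG content, ETS, KLF/SP and repeats kept their sign in all 52 alternatives. The 50% overlap rule left every value identical. All members overlapped a line of the ranked list in each alternative run for that result. Such values count among the 57, and those of the overlap rule also among the 52, so both totals include values that did not change at all.

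With the summit within 500 bp of a TSS there were 2298 members, of which 32.9% lay within 1 kb of a thresholded peak, 46.5% at genes without a thresholded promoter peak, 44.3% within 100 bp of a TSS, 44.4% in CpG-rich sequence, 14.6% with KLF/SP and 7.53% in repeats, and 17.7% of X promoter peaks were weak. Within 2500 bp there were 5516, with 36.8%, 27.2%, 18.5%, 24.7%, 8.23%, 10.4% and 28.0% in the same order. With 5′ gene ends only there were 2021, with 46.8% near a thresholded peak, 54.6% at genes without one, 23.8% at the TSS, 47.0% CpG-rich, 13.8% with KLF/SP and 7.27% in repeats. With protein_coding transcripts only the shares were 45.2% near, 41.6% at genes without, 41.5% CpG-rich and 12.4% with KLF/SP. With at least the median signal there were 1831, with 15.5% near, 53.2% at genes without, 37.8% at the TSS, 12.2% with KLF/SP and 13.7% of X promoter peaks weak. Without the flanking members, an alternative chosen after seeing the data, there were 2102, with 57.9% at genes without, 37.6% at the TSS, 36.6% CpG-rich, 13.2% with KLF/SP and 13.8% of X promoter peaks weak.

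Within 50 bp of a TSS lay 18.4% of members, and within 5 kb of a thresholded peak 56.9%. CpG-rich windows of 200 bp were 37.2%. ETS stood in 2.64% of 100 bp and 5.44% of 400 bp windows, and KLF/SP in 6.42% and 16.3%. The number of weak-only genes stayed within 1.5 times under all alternatives run. Wider windows changed what was counted by construction, and the cause of the other moves was not tested. The unknown depth limits all counts, since more reads could carry a weak peak over the threshold.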

Other observations

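Other families held weak-only genes at shares near that of all genes, 4.85%. Solute carriers, the membrane transporters, had 26 of 371 (7.01%, 95% interval 4.63 to 10.1%), led by Slc38a8 with a signal of 12.5 and Slc22a21 with 8.97. Potassium channels had 6 of 94 (6.38%), led by Kcna7 (9.60) and Kcnj8 (6.78), and orphan G protein-coupled receptors had 6 of 73 (8.22%), led by Gpr45 (8.10) and Gpr85 (7.47). Zinc finger genes named Zfp, of which 307 of 394 were thresholded, had 12 (3.05%), led by Zfp768 (13.9) and Zfp647 (10.1). Among interleukin receptors Il20ra, a receptor chain best known from epithelium, had a weak peak with a signal of 12.3 and its summit 49 bp upstream of the TSS.

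The most common signal among members was 5.42499, shared by 58 of them. Members on the steps of 0.209 had a median signal of 5.84 and a median −log10 p of 14.9, and those off the steps 3.53 and 16.2. This was looked at after the values were seen.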
